A study of Mus musculus with 36 samples.

Results

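The androgen response genes described here are 82 mouse genes that the authors' deposited table assigns to the hallmark of that name, a list of genes that rise when androgen acts on prostate cells. Of the 92 genes of the hallmark, 87 lay outside the hallmarks of E2F targets, MYC targets, adipogenesis and myogenesis, 86 of these were in the expression table, and 82 were left after Spdef, B2m, Ndrg1 and keratins were set aside. They stood among 21650 genes in all. 34 of the 82 also belonged to at least 1 other hallmark. The list came from human homologs, so the mouse-specific pair Arxes1 and Arxes2 entered as partners of SPCS3, and their near-identical reads may have been split between them.

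Androgens act through the androgen receptor, a nuclear receptor that is released from chaperones by its hormone, enters the nucleus and binds DNA at inverted repeats of a short hexamer. Its access to chromatin is helped by the pioneer factor Foxa1, and the glucocorticoid and progesterone receptors bind closely related sites, so several genes of the hallmark answer to those hormones too. In the mammary gland the receptor is found in part of the luminal epithelium and in stroma, and in breast cancer without estrogen receptor it marks a luminal androgen receptor class.

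4T1 is a metastatic mammary tumor line of BALB/c mice, used here with a firefly luciferase reporter, and Py230 is a line from a spontaneous tumor of an MMTV-PyMT transgenic C57BL/6 mouse, whose transgene is driven by a mammary virus promoter. Both lines were inoculated in Matrigel through the teat into the ducts of females of their own strain that had been mated at 8 weeks of age and were lactating, their pups having been weaned, and the inoculum held more Py230 than 4T1 cells. Whole tumors were taken at 1, 3 and 6 weeks post-inoculation (p.i.), together with glands of both strains that received Matrigel alone, giving 12 groups of 3 libraries (36 in all). Each line was grown in 1 strain only, so line and strain cannot be told apart when the primary tumors are compared. The Matrigel glands give the strain difference without a tumor.

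The deposited values are scores, not counts. Within a library they average 0 with an SD of 1, so a score of 0 marks that library's average gene, and depth is unknown. Across 13567 genes whose mean normalized count, as the authors give it, reached 100, 1 score unit corresponded to 2.78 log2 units of mean normalized count, which gives the scale of the differences below. They are score differences, estimate ± SE, from limma's linear model over all 36 libraries (n = 3 a group), and "called" means a Benjamini-Hochberg adjusted p under 0.05 over all 21650 genes. An exact permutation test of 3 against 3 libraries cannot go below p = 0.1. The members were mostly well expressed: 77 reached a mean normalized count of 100 and 81 reached 10, with a median of 1044 against 230 for all genes. The lowest was Azgp1 at 5.27, whose scores rest on few reads.

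Single libraries stood apart at weeks 1 and 3. At week 1 the mean score of 8 skeletal muscle markers was -0.537 in 4T1 replicate 1 against 1.99 and 0.954 in the other 4T1 tumors, -0.327 in BALB/c gland replicate 3 against 1.66 and 2.61, and -0.604 in C57BL/6 gland replicate 3 against 1.57 and 2.80. At week 3 the mean score of 10 adipocyte markers was 0.608 in 4T1 replicate 1 against 2.00 and 2.12 in the other 4T1 tumors, and 0.235 in Py230 replicate 1 against 1.62 and 1.88. Skeletal muscle markers there ranged from -0.732 in Py230 replicate 1 to 2.23 in replicate 3. At week 6 Py230 replicate 3 kept an adipocyte score of 0.953 where the other Py230 tumors were at -0.225 and -0.024. The Py230 tumors of week 1 were close to C57BL/6 Matrigel glands, with adipocyte scores of 1.70 to 1.91 and 1.76 to 2.06. In whole tumors, fewer cells of a type and less RNA per cell cannot be told apart. The epithelial marker Epcam was present in every group, with group means between 1.525 and 1.791 in the tumors.

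Between the tumors the members differed in both directions at every time point. At week 1, 4 members were higher (Spcs3, Sat1, Tmem50a and Ncoa4) and 5 lower (Homer2, Akap12, Ccnd1, Adamts1 and Mak) in 4T1 compared to Py230 tumors, where 11% of all genes were called higher and 8.43% lower. At week 3, 11 members were higher and 22 lower, against 11.9% and 18.5% of all genes. At week 6, 17 were higher and 24 lower, against 24.1% and 16.7%. As shares of the 82 members these were 4.88% and 6.10%, then 13.4% and 26.8%, then 20.7% and 29.3%. The members' share was thus under the background at week 1 in both directions, and above it among the lower genes at weeks 3 and 6. That background depended on the scaling. Of all called genes, 39.1% were higher in 4T1 tumors at week 3 and 59.1% at week 6. With median and MAD scaling these were 49.4% and 71%, and with cyclic loess normalization 47.5% and 49%. The shares were not matched for expression level, which had a higher median in the members. The median member difference was -0.015, -0.032 and -0.026 at weeks 1, 3 and 6, and the median of all genes 0.0055, -0.011 and 0.036. Homer2 was lower and Tmem50a higher at all 3 time points, 20 members were called at 2 of them, 37 at 1 and 23 at none. The matching shares of all genes were not computed, so these counts cannot be set against a background.

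The calls of the first 2 time points depended on the fit and on single libraries. With only the 6 libraries compared in the fit, 5 members were called at week 1, 2 at week 3 (both lower, Acsl3 among them) and 43 at week 6. Every other member call of week 3 was thus lost in that limma fit, with adjusted p = 0.066 for Stk39, 0.0717 for Homer2 and 0.0584 for Abcc4. With the Matrigel gland difference of the strains subtracted, 0, 16 and 30 members were called at weeks 1, 3 and 6. Among the members named here, that subtraction ended the calls of week 3 on Azgp1, Ccnd1, Cenpn, Fkbp5, Gsr, Homer2, Hsd17b14, Inpp4b, Map7 and Tmprss2, and those of week 6 on Arxes2, Hpgd, Inpp4b, Map7, Spcs3 and Tnfaip8. The estimate itself went from -0.59 to -0.13 for Ccnd1 at week 3, but from -0.35 to -0.40 for Tmprss2 there. The subtraction draws on more groups, so its SE is larger. Which of these ended each call was not tested. Leaving out a single library of week 1 left 2 calls (4T1 replicate 1) or 3 (4T1 replicate 3, and likewise Py230 replicate 1) and gave 23 (4T1 replicate 2), and at week 3 there were 17 without Py230 replicate 1.

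**Figure D1:**
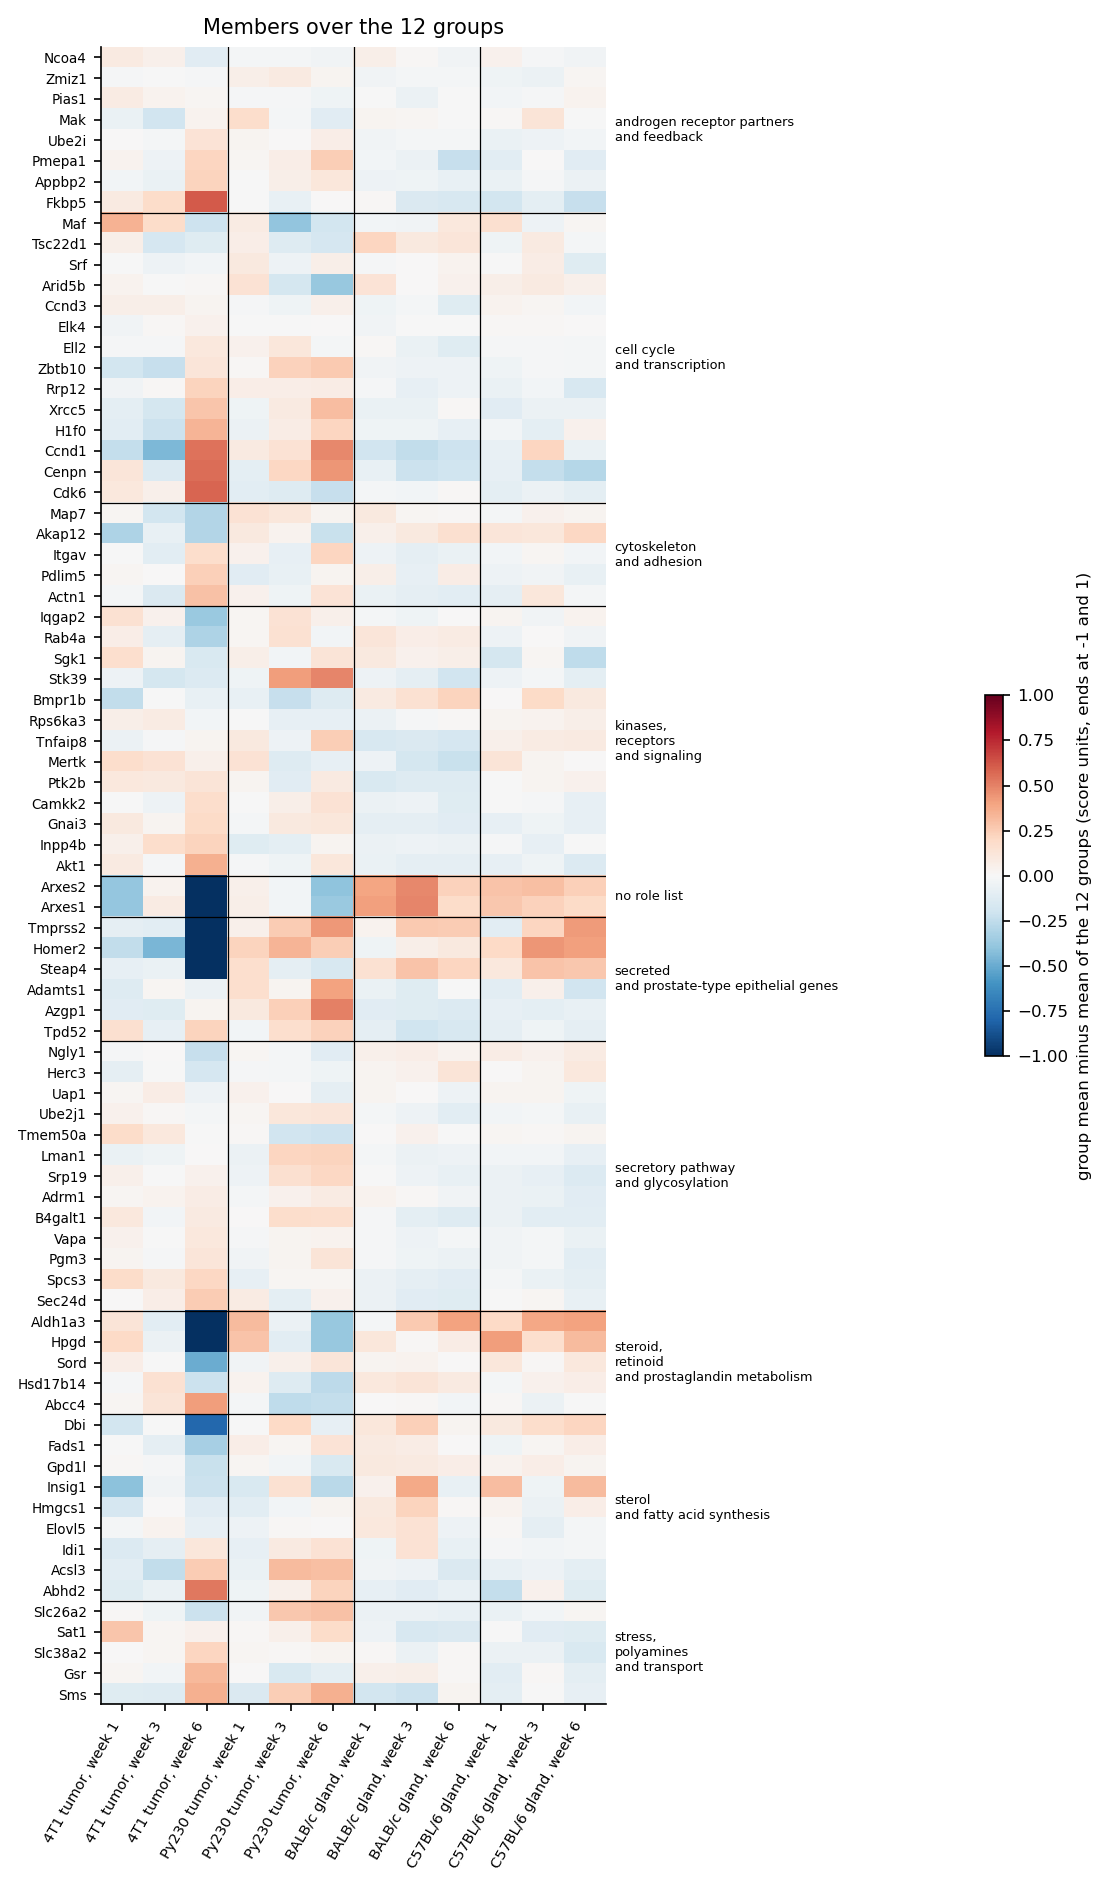
Group mean of 80 of the 82 members minus its own mean over the 12 groups, in score units, with rows grouped by role and columns by tumor or gland and week (colors end at -1 and 1). The deepest blue cells are in the 4T1 tumors of week 6 (Tmprss2, Homer2, Steap4, Aldh1a3, Hpgd, Arxes1 and Arxes2), while most rows stay pale, with a median range over the groups of 0.427.

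The secreted and prostate-type epithelial genes held the 2 largest differences of week 6, those of Tmprss2 and Homer2. Of 6 members, 0 were higher in 4T1 tumors at any time point, and 2, 4 and 5 were lower at weeks 1, 3 and 6. Of all genes, 8.43%, 18.5% and 16.7% were lower and 11%, 11.9% and 24.1% higher at these time points. These shares stand beside the counts of every role list below. With only the libraries compared in the fit, Tpd52 of this list was called higher at week 1. Tmprss2 encodes a transmembrane serine protease known as a marker of androgen action in the prostate. It scored 0.58, 0.66 and 0.79 in the 4T1 tumors of week 1, 0.45, 0.69 and 0.86 at week 3 and -0.89, -0.88 and -0.84 at week 6. In Py230 tumors the scores were 0.81, 0.82 and 0.84 at week 1, 0.87, 1.07 and 1.12 at week 3 and 1.15, 1.23 and 1.23 at week 6. The last 4T1 values thus lay far below every other library of the series, and both lines were near each other at week 1. The difference was -2.07 ± 0.095, adjusted p = 3.97e-15 at week 6, -0.35 ± 0.095, adjusted p = 0.00631 at week 3 and -0.14 ± 0.095, adjusted p = 0.295 at week 1, where it was not called. The call of week 3 was lost without 4T1 replicate 1. Within 4T1 tumors Tmprss2 fell by 1.55 ± 0.095 (adjusted p = 2.07e-12) from week 1 to week 6, and within Py230 tumors it rose by 0.38 ± 0.095, adjusted p = 0.00264.

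Homer2, a scaffold protein of glutamate receptor signaling, was the member lower in 4T1 tumors throughout. Its 4T1 scores were 0.09, 0.14 and 0.31 at week 1, -0.38, 0.00 and 0.27 at week 3 and -0.94, -0.86 and -0.74 at week 6, while the Py230 tumors kept to 0.54, 0.64 and 0.76, then 0.64, 0.77 and 0.87, then 0.66, 0.67 and 0.69. The groups did not overlap at any time point, and the gap widened. The difference was -0.47 ± 0.099, adjusted p = 0.00221 at week 1, -0.80 ± 0.099, adjusted p = 1.47e-06 at week 3 and -1.51 ± 0.099, adjusted p = 3.18e-12 at week 6. Without a tumor, BALB/c glands were also below C57BL/6 glands at week 3 (-0.38 ± 0.099, adjusted p = 0.0262). With that gland difference subtracted, only the call of week 6 remained.

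Steap4, a metalloreductase of iron and copper uptake, scored 0.38, 0.50 and 0.52 in the 4T1 tumors of week 6 and 1.35, 1.35 and 1.43 in the Py230 tumors (-0.91 ± 0.14, adjusted p = 1.05e-05). It was not called between the tumors before, and its scores at week 3 spread over 0.98, 1.58 and 1.86 in 4T1 and 1.11, 1.52 and 1.71 in Py230 tumors. Adamts1, a secreted metalloprotease, was lower in 4T1 tumors at week 1 (-0.30 ± 0.088, adjusted p = 0.0197) and at week 6 (-0.46 ± 0.088, adjusted p = 0.000126), where the Py230 scores were 1.31, 1.54 and 1.58 and the 4T1 scores 0.97, 1.00 and 1.07. The call of week 1 was lost when 4T1 replicate 1 or 3, or else Py230 replicate 1, was left out. Azgp1, a secreted zinc-binding glycoprotein that mobilizes lipid, had -1.84, -1.84 and -1.82 in 4T1 and -1.48, -1.33 and -1.26 in Py230 tumors of week 6 (-0.48 ± 0.081, adjusted p = 2.78e-05). The lower values in 4T1 tumors came with lower luminal epithelium markers, of which 6 of 10 were lower in 4T1 tumors at weeks 3 and 6 each, and 0 higher. The luminal list averaged 0.53 to 0.94 in 4T1 and 1.22 to 1.38 in Py230 tumors of week 6, with Epcam, Krt18 and Cldn4 not called between them. In the 4T1 tumors of week 3 it averaged 0.81 to 0.94. Lactating epithelium markers averaged 0.69 to 0.88 in 4T1 tumors of week 3 and -0.88 to -0.84 at week 6. The part of epithelial content in these differences was not tested.

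**Figure D2:**
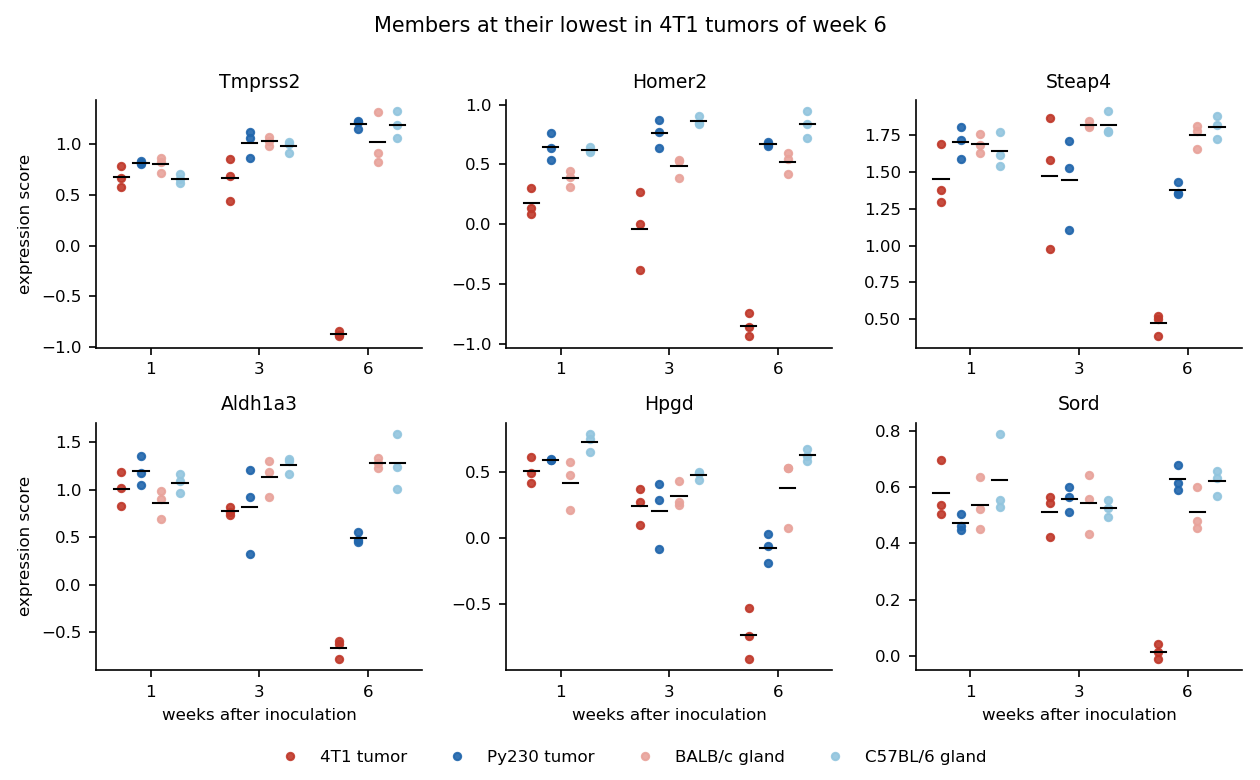
Expression score of 6 members (y axis, score units) in each library against weeks after inoculation, with 1 point a library and a black bar for the mean of 3. In the 4T1 tumors of week 6 Tmprss2 lay between -0.89 and -0.84 and Sord between -0.01 and 0.04, below every library of the other groups.

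Promoter sequence is shown for 4 members called at week 6, 2 lower and 2 higher in 4T1 tumors, to show what lies before starts that moved in opposite directions. Tmprss2, Homer2 and Cdk6 had the largest differences of their direction, and Fkbp5 was taken as a well known androgen target. The 250 bases before the RefSeq start (GRCm38.p6) are given 5′ to 3′ on the strand of the gene, in lower case, with capitals for the hexamer AGAACA, the repeat unit of the androgen response element, in either orientation (TGTTCT on the other strand).
Tmprss2, chr16:97611196-97611445, strand -: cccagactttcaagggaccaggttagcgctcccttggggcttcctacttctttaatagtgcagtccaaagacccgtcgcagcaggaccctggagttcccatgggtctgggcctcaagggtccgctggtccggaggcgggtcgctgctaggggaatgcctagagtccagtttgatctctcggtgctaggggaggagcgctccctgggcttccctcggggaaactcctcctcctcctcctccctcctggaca
Homer2, chr7:81706926-81707175, strand -: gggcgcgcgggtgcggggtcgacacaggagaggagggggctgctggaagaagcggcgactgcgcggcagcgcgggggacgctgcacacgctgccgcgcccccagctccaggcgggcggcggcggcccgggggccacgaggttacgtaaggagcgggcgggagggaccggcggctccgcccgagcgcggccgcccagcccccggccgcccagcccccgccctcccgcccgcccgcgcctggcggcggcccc
Cdk6, chr5:3343643-3343892, strand +: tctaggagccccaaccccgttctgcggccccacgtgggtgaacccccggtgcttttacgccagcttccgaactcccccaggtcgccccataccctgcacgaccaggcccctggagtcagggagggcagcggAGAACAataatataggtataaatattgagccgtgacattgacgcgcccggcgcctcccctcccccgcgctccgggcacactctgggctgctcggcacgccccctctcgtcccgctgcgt
Fkbp5, chr17:28486150-28486399, strand -: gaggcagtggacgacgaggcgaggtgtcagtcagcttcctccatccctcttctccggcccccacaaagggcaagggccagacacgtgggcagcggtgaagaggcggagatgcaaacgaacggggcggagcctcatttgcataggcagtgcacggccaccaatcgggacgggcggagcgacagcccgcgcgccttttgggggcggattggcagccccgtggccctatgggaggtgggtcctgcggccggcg
Of these, the Cdk6 sequence held the hexamer, 119 bases before the start, and the others held neither it nor the forkhead motif TGTTTAC or its reverse complement. They were rich in G and C, at 61.6% for Tmprss2, 83.2% for Homer2, 66.0% for Cdk6 and 68.0% for Fkbp5. In GRCm38 the genes themselves span chr16:97564682-97611195 (Tmprss2), chr7:81600481-81707527 (Homer2), chr5:3341485-3531008 (Cdk6) and chr17:28399094-28517527 (Fkbp5). The Tmprss2 window ends where that span begins on its strand, and the other windows lie inside the spans, since GENCODE lists further starts upstream of the RefSeq start. RefSeq listed 59 of the 82 members. Over windows of 300 bases, from 250 before to 50 after the start, the hexamer was found in 9 of the 59 (15.3%) and in 19.0% of all 27025 promoters. The forkhead motif was found in 3 members (5.08%) and in 3.52% of all. Both orientations facing each other at a distance of 3 bases, which is the full element, were found in 0 member windows and 1 of all. Neither motif contains the other. A match describes letters in a short window, and enhancers, where the receptor mostly binds, were not examined.

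Among the 5 members of steroid, retinoid and prostaglandin metabolism, 0 were called at week 1, 2 were higher at week 3 and, at week 6, 1 was higher and 3 lower in 4T1 tumors. Aldh1a3, which makes retinoic acid, scored -0.78, -0.63 and -0.59 in 4T1 and 0.45, 0.48 and 0.56 in Py230 tumors of week 6, and 0.83, 1.02 and 1.18 and 1.05, 1.17 and 1.35 at week 1. It fell in both models from week 1 to week 6, by 1.67 ± 0.15 (adjusted p = 1.26e-09) in 4T1 and 0.70 ± 0.15 (adjusted p = 0.000751) in Py230 tumors, and the tumors differed at week 6 alone (-1.16 ± 0.15, adjusted p = 5.45e-07). Hpgd, which inactivates prostaglandins, took the same course, with -0.91, -0.74 and -0.53 in 4T1 and -0.18, -0.06 and 0.03 in Py230 tumors of week 6 (-0.66 ± 0.12, adjusted p = 5.29e-05). That call was lost with the gland difference of the strains subtracted. Sord, sorbitol dehydrogenase, scored -0.01, 0.01 and 0.04 in 4T1 and 0.59, 0.62 and 0.68 in Py230 tumors (-0.61 ± 0.062, adjusted p = 8.08e-09), and fell in the 4T1 tumors by 0.56 ± 0.062 (adjusted p = 3.72e-08) from week 1 to week 6.

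Abcc4, an efflux pump for cyclic nucleotides and prostaglandins, went the other way. At week 1 the tumors overlapped, with 0.42, 0.47 and 0.50 in 4T1 and 0.35, 0.43 and 0.49 in Py230 tumors. At week 6 the scores were 0.82, 0.88 and 0.90 in 4T1 and 0.17, 0.22 and 0.23 in Py230 tumors, above and below all glands. The difference was 0.38 ± 0.043, adjusted p = 3.25e-07 at week 3 and 0.66 ± 0.043, adjusted p = 3.47e-12 at week 6. Hsd17b14, a hydroxysteroid dehydrogenase at a mean normalized count of 15.4, was higher in 4T1 tumors at week 3 (0.28 ± 0.078, adjusted p = 0.00739), a call lost without 4T1 replicate 3 or Py230 replicate 1.

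Of the 8 androgen receptor partners and feedback genes, 1 was higher and 1 lower at week 1 (Ncoa4 and Mak), 1 higher and 1 lower at week 3 (Fkbp5 and Appbp2) and 2 higher and 0 lower at week 6 (Fkbp5 and Appbp2). Fkbp5, a co-chaperone of steroid receptors and one of the best known genes induced by androgens and glucocorticoids, scored 0.78, 0.81 and 1.18 in the 4T1 tumors of week 1, 0.71, 1.12 and 1.20 at week 3 and 1.35, 1.47 and 1.51 at week 6. The Py230 tumors had 0.78, 0.79 and 0.92, then 0.73, 0.76 and 0.78, then 0.81, 0.84 and 0.84. The groups overlapped at weeks 1 and 3 and were apart at week 6, with differences of 0.26 ± 0.09, adjusted p = 0.0325 and 0.61 ± 0.09, adjusted p = 3.69e-06 at weeks 3 and 6. The first of these was lost without 4T1 replicate 1 or 2 or any of the Py230 libraries. Ncoa4, a receptor coactivator that also delivers ferritin to lysosomes, was higher in 4T1 tumors at week 1 (0.11 ± 0.035, adjusted p = 0.0363), and Mak, a kinase of germ cells at a mean normalized count of 13.6, was lower (-0.24 ± 0.082, adjusted p = 0.0372). Both calls were lost without 4T1 replicate 1, among other libraries. Pias1 and Zmiz1, coregulators of the receptor, were called in 0 of the 16 comparisons made.

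Of the 14 cell cycle and transcription genes, 0 were higher and 1 lower at week 1, 1 higher and 6 lower at week 3 and 4 higher and 0 lower at week 6 in 4T1 compared to Py230 tumors. Of all genes, 18.5% were lower at week 3 and 24.1% higher at week 6. Cdk6, a kinase of the G1 phase, scored 1.24, 1.39 and 1.41 in 4T1 and 0.51, 0.52 and 0.58 in Py230 tumors of week 6, without overlap (0.81 ± 0.079, adjusted p = 4.28e-09), after 0.65, 0.71 and 1.09 and 0.56, 0.67 and 0.68 at week 3. Ccnd1, the cyclin partner of Cdk6, was lower in 4T1 tumors at week 3, with 0.76, 0.88 and 1.19 against 1.37, 1.58 and 1.65 (-0.59 ± 0.10, adjusted p = 0.000112). At week 6 both tumors were high and overlapped, with 1.83, 1.91 and 2.06 and 1.85, 1.86 and 1.90 (0.064 ± 0.10, adjusted p = 0.662, not called). BALB/c glands of week 3 were also below C57BL/6 glands in Ccnd1 (-0.46 ± 0.10, adjusted p = 0.00604), and the tumor call was lost with the gland difference subtracted.

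H1f0, a linker histone, was lower in 4T1 tumors at week 3 (-0.29 ± 0.04, adjusted p = 6.94e-06) and higher at week 6 (0.13 ± 0.04, adjusted p = 0.013), where the scores were 1.66, 1.69 and 1.70 in 4T1 and 1.49, 1.56 and 1.62 in Py230 tumors. The second call was lost with cyclic loess normalization, with median and MAD scaling and without Py230 replicate 3. Maf, a transcription factor, scored 1.36, 1.59 and 1.66 in 4T1 and 0.73, 0.96 and 1.17 in Py230 tumors of week 3 (0.58 ± 0.11, adjusted p = 0.000209), Zbtb10 0.21, 0.47 and 0.56 and 0.70, 0.86 and 1.07 (-0.46 ± 0.085, adjusted p = 0.00023), and Arid5b 1.11, 1.22 and 1.32 and 0.78, 0.82 and 0.88 at week 6 (0.39 ± 0.085, adjusted p = 0.000539). For Arid5b it was the Py230 tumors that had left the level of the glands. Cenpn, a centromere protein, was lower in 4T1 tumors at week 3 (-0.34 ± 0.10, adjusted p = 0.0144), which was lost without 4T1 replicate 3 or Py230 replicate 1 or 2.

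Kinases, receptors and signaling genes were divided: of 13 members, 0 were called at week 1, 4 were higher and 2 lower at week 3 and 2 higher and 5 lower at week 6 in 4T1 tumors. Stk39, a kinase that controls ion cotransporters, scored 0.84, 0.88 and 0.93 in 4T1 and 0.85, 0.89 and 0.92 in Py230 tumors of week 1. At week 3 it was at 0.71, 0.77 and 0.80 and 1.10, 1.39 and 1.58, and at week 6 at 0.72, 0.78 and 0.90 and 1.39, 1.42 and 1.46. The Py230 tumors had moved up while the 4T1 tumors stayed among the glands, with differences of -0.60 ± 0.067, adjusted p = 2.84e-07 and -0.62 ± 0.067, adjusted p = 2.41e-08. Sgk1, a kinase induced by glucocorticoids, was lower in 4T1 tumors at week 6 (-0.28 ± 0.07, adjusted p = 0.00191), and Inpp4b, a phosphatase of the PI3 kinase pathway, was higher at week 3 (0.27 ± 0.075, adjusted p = 0.00763) and week 6 (0.19 ± 0.075, adjusted p = 0.041). Both calls on Inpp4b were lost with the gland difference subtracted and with only the libraries compared in the fit, and that of week 3 also without 4T1 replicate 1. That of week 6 was lost as well with cyclic loess, without 4T1 replicate 2 and without any Py230 library.

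Sterol and fatty acid synthesis, a pathway that androgens raise through the SREBP factors, gives its name to a list of 11 members, not all of which are enzymes of that synthesis. Of these, 0 were called at week 1, 2 were lower at week 3 (Acsl3 among them) and 1 was higher (Abhd2) and 3 lower (Dbi, Fads1 and Gpd1l) at week 6 in 4T1 tumors. Acsl3, which activates fatty acids, scored 0.53, 0.59 and 0.60 in 4T1 and 0.96, 1.13 and 1.31 in Py230 tumors of week 3, without overlap (-0.56 ± 0.062, adjusted p = 2.18e-07). At week 6 the 4T1 tumors had reached 0.99, 1.07 and 1.15 and overlapped the Py230 tumors at 1.06, 1.09 and 1.19. Fads1, a fatty acid desaturase, scored 1.21, 1.23 and 1.36 in 4T1 and 1.70, 1.74 and 1.76 in Py230 tumors of week 6 (-0.46 ± 0.048, adjusted p = 1.08e-08). Hmgcs1 and Idi1, enzymes of the mevalonate pathway, were called in 0 of 16 comparisons. Of 20 SREBP targets outside the hallmark, 2 were lower at week 1, 10 lower at week 3 (Sqle, Cyp51 and Srebf2 among them) and 5 lower and 1 higher at week 6. Of all genes, 8.43%, 18.5% and 16.7% were lower at weeks 1, 3 and 6, and 24.1% higher at week 6.

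Secretory pathway and glycosylation genes (13 members) had 2 higher and 0 lower at week 1, 2 higher and 4 lower at week 3 and 4 higher and 4 lower at week 6. Tmem50a, a membrane protein, was higher in 4T1 tumors at each time point, by 0.17 ± 0.049 (adjusted p = 0.0146), 0.29 ± 0.049 (adjusted p = 7.08e-05) and 0.20 ± 0.049 (adjusted p = 0.00178). The first of these was lost when 4T1 replicate 1 or 3, or else Py230 replicate 1, was left out. Lman1, a cargo receptor from endoplasmic reticulum to Golgi, scored 1.35, 1.35 and 1.36 in 4T1 and 1.49, 1.63 and 1.72 in Py230 tumors of week 3 (-0.26 ± 0.034, adjusted p = 3.29e-06) and 1.37, 1.41 and 1.44 and 1.62, 1.62 and 1.63 at week 6 (-0.22 ± 0.034, adjusted p = 7.08e-06). As with Stk39, the Py230 tumors had risen. Spcs3, a subunit of the signal peptidase, was higher in 4T1 tumors at week 1 (0.26 ± 0.06, adjusted p = 0.00379) and week 6 (0.19 ± 0.06, adjusted p = 0.014). With the gland difference subtracted the estimates were 0.30 and 0.20, but both calls were lost (adjusted p = 0.0787 and 0.0809). That of week 1 was also lost with only the libraries compared (adjusted p = 0.0564).

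Of the 5 genes of stress, polyamines and transport, 1 was higher at week 1, 1 higher and 2 lower at week 3 and 2 higher and 1 lower at week 6 in 4T1 tumors. Gsr, glutathione reductase, scored 1.28, 1.32 and 1.35 in 4T1 and 0.84, 0.88 and 0.97 in Py230 tumors of week 6 (0.42 ± 0.045, adjusted p = 1.85e-08). Slc26a2, a sulfate transporter, scored 0.76, 0.84 and 0.89 and 1.28, 1.30 and 1.41 (-0.50 ± 0.059, adjusted p = 1.01e-07). Sat1, which acetylates polyamines, was higher in 4T1 tumors at week 1 (0.26 ± 0.089, adjusted p = 0.0403), a call lost when any single one of 4T1 replicates 1 and 3 and Py230 replicates 1, 2 and 3 was left out. Leukocyte markers moved with this time point, since 6 of 10 were higher in 4T1 tumors of week 1 and 0 lower, with list means of 0.47 to 0.68 in 4T1 and 0.04 to 0.35 in Py230 tumors, and their part was not tested.

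Of the 5 cytoskeleton and adhesion genes, 1 was lower at week 1, 1 lower at week 3 and 1 higher and 1 lower at week 6. Map7, a microtubule protein, was lower in 4T1 tumors at week 3 (-0.30 ± 0.085, adjusted p = 0.0085) and week 6 (-0.32 ± 0.085, adjusted p = 0.00359), and both calls were lost with the gland difference subtracted. Akap12, a scaffold of protein kinase A, scored 0.50, 0.64 and 0.84 in 4T1 and 0.91, 0.99 and 1.30 in Py230 tumors of week 1 (-0.41 ± 0.12, adjusted p = 0.0183), which was lost when 4T1 replicate 1 or 3, or else Py230 replicate 1, was left out.

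**Figure D3:**
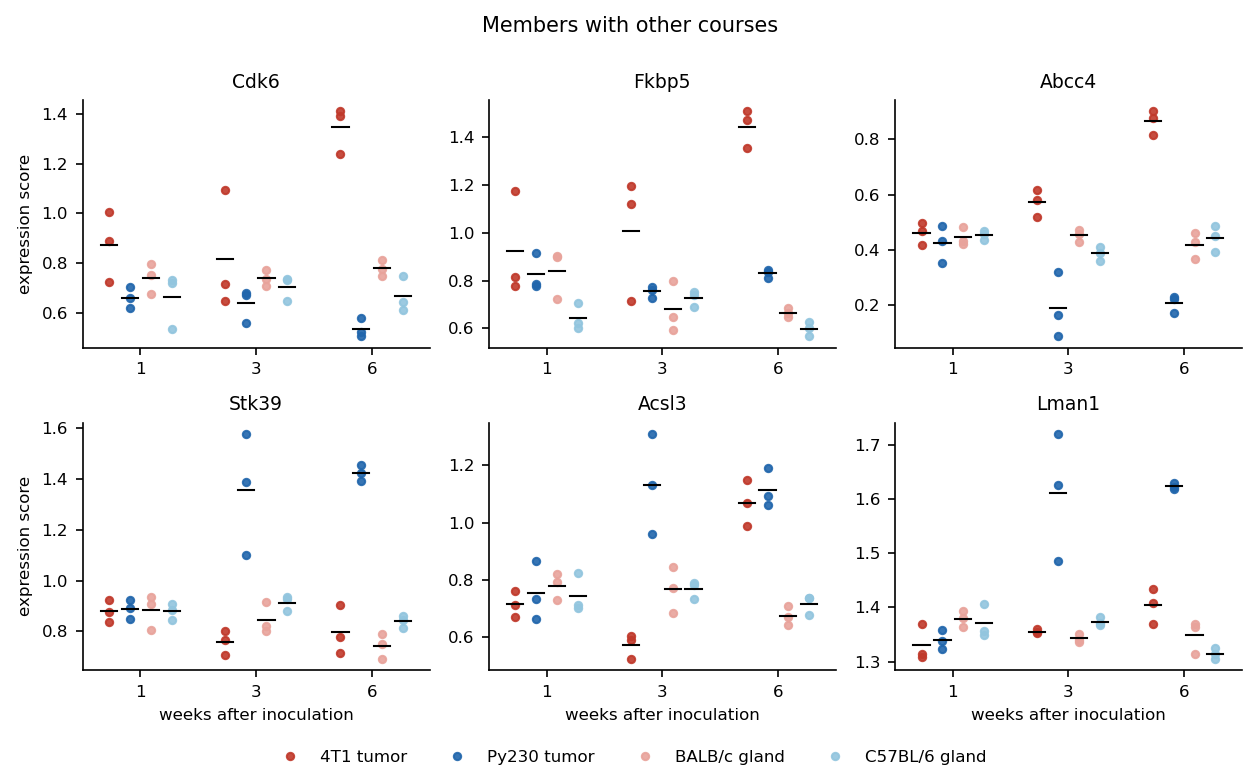
Expression score of 6 members (y axis, score units) in each library against weeks after inoculation, with 1 point a library and a black bar for the mean of 3. Cdk6, Fkbp5 and Abcc4 were highest in the 4T1 tumors of week 6, while Stk39 and Lman1 were highest in the Py230 tumors of weeks 3 and 6 and Acsl3 was high in Py230 tumors from week 3 and in 4T1 tumors at week 6 only.

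The change of the tumor difference between time points was tested in the same fit. From week 1 to week 3 it rose for 4 members (4.88%) and fell for 11 (13.41%), against 4.89% and 10.4% of all genes. From week 3 to week 6 it rose for 15 (18.29%) and fell for 13 (15.85%), against 17.8% and 8.88% of all genes. With cyclic loess normalization it rose for 12 and fell for 18. The largest was Tmprss2, whose difference moved by -1.72 ± 0.14, adjusted p = 4.09e-09 from week 3 to week 6. Without Py230 replicate 1 of week 3, 8 members were called for the first change, and without 4T1 replicate 1 of week 3 the number was 25.

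Against the Matrigel glands of their own strain, the 4T1 tumors had 9 members higher and 4 lower at week 1 (10.98% and 4.88% of members, all genes 9.91% and 6.72%). At week 3, 2 were higher and 5 lower (2.44% and 6.10%, all genes 2.1% and 1.15%). At week 6, 38 were higher and 23 lower (46.34% and 28.05%, all genes 38.6% and 21.5%). The counts of weeks 1 and 3 fell to 0 with only the libraries compared in the fit. Leaving out 4T1 replicate 1, 4T1 replicate 3 or gland replicate 2 also gave 0 at week 1, and gland replicate 1 gave 8. At week 3 leaving out 4T1 replicate 1 or gland replicate 3 gave 0, gland replicate 1 or 2 gave 1 and 4T1 replicate 3 gave 11. At week 6 the members that fell most were Aldh1a3, by 1.95 ± 0.15 (adjusted p = 8.18e-11), Tmprss2, by 1.89 ± 0.095 (adjusted p = 5.37e-14), and Arxes2, by 1.45 ± 0.29 (adjusted p = 0.000136). Those that rose most were Fkbp5 (0.78 ± 0.09, adjusted p = 6.98e-08), Cenpn (0.76 ± 0.10, adjusted p = 8.78e-07) and Ccnd1 (0.75 ± 0.10, adjusted p = 8.85e-07). The glands of week 6 scored 0.65, 0.67 and 0.69 for Fkbp5 and 0.83, 0.91 and 1.32 for Tmprss2, apart from the 4T1 tumors in both genes.

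The Py230 tumors had 0 members called against C57BL/6 glands at week 1 in limma, with 10 of 82 at an unadjusted p under 0.05. Of all genes 0% were higher and 0.00924% lower there, and 1547 passed unadjusted. At week 3, 15 members were higher and 9 lower (18.29% and 10.98%, all genes 12.8% and 6.9%), which median and MAD scaling turned into 11 and 11. The 24 calls became 0 with only the libraries compared in the fit, 7 without Py230 replicate 1, 15 without Py230 replicate 2 and 14 without gland replicate 3. At week 6, 35 were higher and 14 lower (42.68% and 17.07%, all genes 28.8% and 18.7%). Cenpn (0.73 ± 0.10, adjusted p = 3.94e-06) and Adamts1 (0.59 ± 0.088, adjusted p = 7.45e-06) were among the 3 that rose most, and Aldh1a3, by 0.78 ± 0.15 (adjusted p = 0.000143), Hpgd, by 0.70 ± 0.12 (adjusted p = 3.25e-05), and Insig1, the sterol sensor that holds back SREBP, by 0.58 ± 0.18 (adjusted p = 0.0104), fell most.

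The 2 tumor-gland comparisons of week 6 share no library, but both took their spread per gene from the same fit of all 36 libraries. Calls in both, or in neither, are thus not independent. In both models 25 members were higher (30.5%, all genes 19.6%) and 9 lower (11.0%, all genes 10.5%), and 3 were called in opposite directions (Abcc4, Sgk1 and Slc26a2, 3.66%, all genes 3.37%). A call was made in the 4T1 comparison alone for 24 (29.3%, all genes 26.6%), in the Py230 comparison alone for 12 (14.6%, all genes 14.1%) and in neither for 9 (11.0%, all genes 25.8%). These shares were not matched for expression level, and their directions depended on the scaling. Of all genes called in the 4T1 comparison, 64.2% were higher. With cyclic loess normalization it was 50.6%, and with median and MAD scaling 68.6%. Cenpn was among the 25, with 0.10, 0.23 and 0.30 in 4T1 tumors, -0.63, -0.52 and -0.49 in BALB/c glands, 0.00, 0.12 and 0.16 in Py230 tumors and -0.66, -0.64 and -0.60 in C57BL/6 glands, so each tumor stood above its glands. Abcc4 was higher in 4T1 tumors (0.45 ± 0.043, adjusted p = 4.18e-09) and lower in Py230 tumors (-0.24 ± 0.043, adjusted p = 9.2e-05) than in their glands. Sgk1 was lower in 4T1 tumors (-0.21 ± 0.07, adjusted p = 0.0115) and higher in Py230 tumors (0.39 ± 0.07, adjusted p = 7.53e-05). Adipocyte markers moved with these comparisons, with 10 of 10 lower in both tumors of week 6 and list means of -0.45 to -0.15 in 4T1 tumors, -0.23 to 0.95 in Py230 tumors, 1.57 to 1.88 in BALB/c and 1.80 to 2.17 in C57BL/6 glands. In 4T1 tumors 8 of 8 skeletal muscle and 5 of 7 lactating epithelium markers were lower as well, and in Py230 tumors 6 of 6 endothelial and 5 of 7 fibroblast markers. The means of these lists were lower without overlap in the other model too. Endothelial means were 0.84 to 0.94 in 4T1 tumors and 1.06 to 1.18 in BALB/c glands. Muscle means were -0.67 to 1.28 in Py230 tumors and 1.74 to 2.05 in C57BL/6 glands. Leukocyte means were 0.33 to 0.37 in 4T1 tumors and -0.04 to 0.20 in BALB/c glands, and overlapped in the Py230 comparison. Between the tumors of week 6, 5 of 7 lactating epithelium markers were lower and 0 higher in 4T1, with list means of -0.88 to -0.84 in 4T1 and -0.07 to 0.15 in Py230 tumors, without overlap. The part of these cell types in the members' values was not tested.

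**Figure D4:**
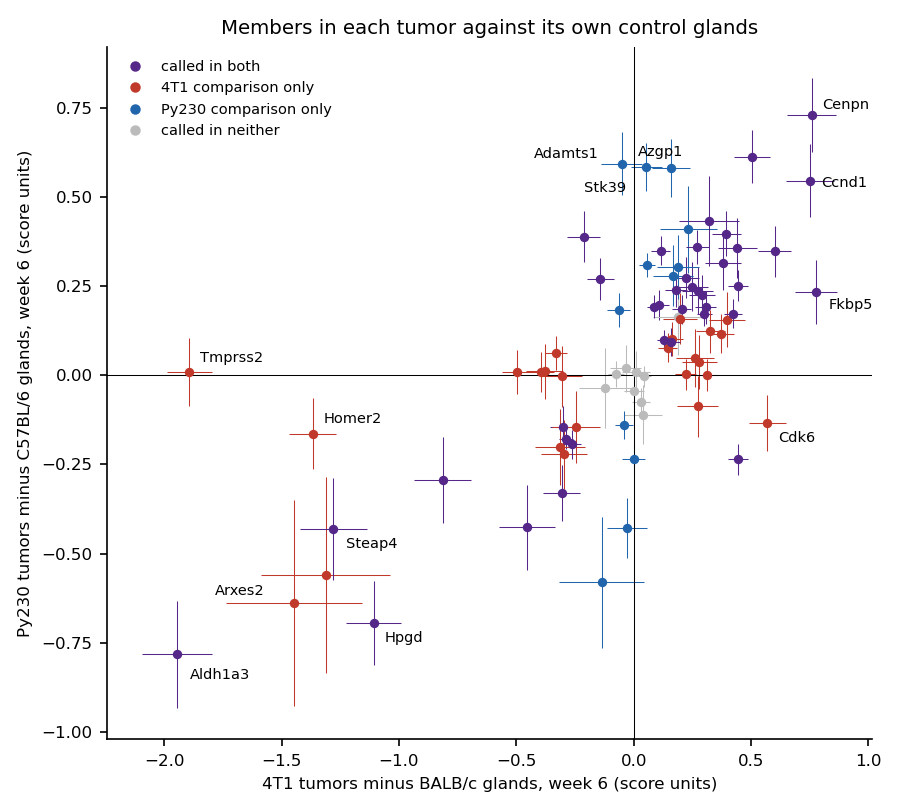
Difference of each of the 82 members between tumor and Matrigel gland of the same strain at week 6, 4T1 on the x axis and Py230 on the y axis (score units, bars show SE), colored by where the difference was called. Aldh1a3, Steap4 and Hpgd were lower in both, Cenpn, Ccnd1 and Fkbp5 higher in both, and Tmprss2 lay at -1.89 in 4T1 but at 0.01 in Py230 tumors.

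Over time, 27 members were higher and 22 lower in 4T1 tumors of week 6 compared to week 1 (32.93% and 26.83%, all genes 31.3% and 17.5%). In Py230 tumors 29 were higher and 13 lower (35.37% and 15.85%, all genes 24.3% and 14.7%). Cyclic loess normalization gave 21 and 27 in 4T1 tumors, and median and MAD scaling 19 and 17 in Py230 tumors, so the balance of directions over time depended on the scaling. The range of group means was over 1 score unit for 8 members (Tmprss2, Aldh1a3, Homer2, Arxes1, Arxes2, Hpgd, Steap4 and Dbi), which is 9.76% of them, against 8.83% of all genes. All 8 had their lowest mean in the 4T1 tumors of week 6, as had 55.6% of all genes with such a range. The median range was 0.427, against 0.329 for all genes. The highest mean was found in the 4T1 tumors of week 6 for 23 members (28.1%, all genes 33.6%) and in the Py230 tumors of week 6 for 21 (25.6%, all genes 14.5%).

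Few members differed between the strains alone. Between BALB/c and C57BL/6 Matrigel glands, 1 member was higher and 0 lower at week 1 (all genes 1.57% and 1.49%), 1 higher and 2 lower at week 3 (1.89% and 1.88%) and 2 higher and 1 lower at week 6 (1.67% and 2.18%). Sgk1 was higher in BALB/c glands at week 1 (0.27 ± 0.07, adjusted p = 0.0264) and week 6 (0.32 ± 0.07, adjusted p = 0.00575), with 1.24, 1.35 and 1.36 against 0.95, 0.99 and 1.05 at week 6 and no overlap. Tnfaip8, an inhibitor of apoptosis, was lower at week 6 (-0.25 ± 0.071, adjusted p = 0.0387). It was also lower in 4T1 than in Py230 tumors there (-0.22 ± 0.071, adjusted p = 0.0164), and subtracting the glands turned that difference to 0.039. These small counts rested on single glands. At week 1, 0 were called without BALB/c replicate 1 or 3 or C57BL/6 replicate 1 or 2, and 2 without C57BL/6 replicate 3. At week 3, 0 were called without BALB/c replicate 2 and 1 without C57BL/6 replicate 2 or 3, and at week 6 only 1 without replicate 2 of either strain.

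Other genes of the pathway lay outside the hallmark. Of 32 listed genes of androgen synthesis, receptors and cofactors, 23 were in the expression table. In 4T1 compared to Py230 tumors 1 was higher and 8 lower at week 1, and 0 higher and 6 lower at week 3. At week 6, 3 were higher and 8 lower. Of all genes, 11% were higher and 8.43% lower at week 1, 11.9% and 18.5% at week 3, and 24.1% and 16.7% at week 6. The list was chosen with earlier results of these data known. Foxa1 was called lower in 4T1 tumors at all time points, though at week 3 the call was lost with only the libraries compared in the fit, and with the gland difference of the strains subtracted only that of week 6 remained. It scored -0.45, -0.38 and -0.23 in 4T1 and 1.35, 1.39 and 1.45 in Py230 tumors of week 6 (-1.75 ± 0.12, adjusted p = 7.86e-12). From week 1 to week 6 it fell in 4T1 tumors by 0.52 ± 0.12 (adjusted p = 0.000843) and rose in Py230 tumors (0.56 ± 0.12, adjusted p = 0.000686). Nr3c1, the glucocorticoid receptor, which shares targets such as Fkbp5 and Sgk1, scored 1.20, 1.22 and 1.28 and 1.53, 1.55 and 1.58 (-0.32 ± 0.033, adjusted p = 8.51e-09). Ncoa1, a coactivator of steroid receptors, was lower in 4T1 tumors at week 1 (-0.18 ± 0.03, adjusted p = 0.000202) and week 6 (-0.13 ± 0.03, adjusted p = 0.000976). With the gland difference subtracted, the other calls on Nr3c1 (weeks 1 and 3) and both calls on Ncoa1 were lost. BALB/c glands of week 3 were already below C57BL/6 glands in Foxa1 (-0.48 ± 0.12, adjusted p = 0.0181).

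**Figure D5:**
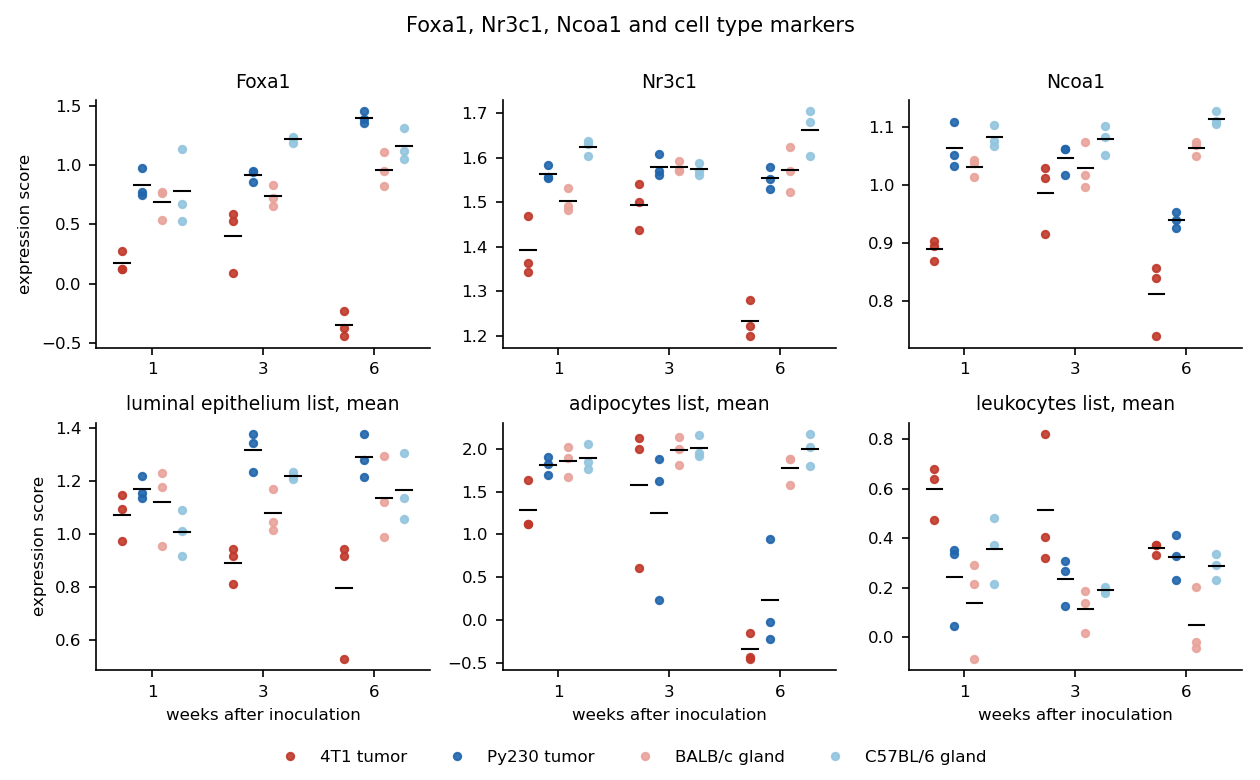
Expression score (y axis, score units) of Foxa1, Nr3c1 and Ncoa1 and the mean score of 3 marker lists in each library against weeks after inoculation, with 1 point a library and a black bar for the mean of 3. Foxa1 lay below 0 in all 4T1 tumors of week 6, and the adipocyte markers were low in both tumors of week 6 and in single libraries of week 3.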

How the data were processed

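RNA of whole tumors and Matrigel glands was made by the authors into stranded libraries and sequenced in pairs of reads. Reads were mapped by the authors with STAR to mm10, counted per gene, and normalized and tested with DESeq2 (versions not given in the sources used here). The deposited expression table holds a score per gene and library with a mean of 0 and an SD of 1 in each library, a step by the authors that their methods do not describe. A common SD can shift differences between libraries of unequal spread. The authors' comparison tables hold fold changes and p-values, which were not used, and mean normalized counts and other per-gene values, of which only the mean normalized count was taken. The depth of each library is unknown, so precision rests on 3 libraries a group. The labels give no batch.

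Scores were fitted with limma 3.58.1 in R 4.3.3, with 1 mean per group over all 36 libraries and empirical Bayes moderation (trend, robust), because scores cannot enter a count model. The 16 comparisons were between the tumors at every time point, for the change of that difference between them, each tumor against its glands, the strains' glands, and week 6 against week 1 in each tumor, with Benjamini-Hochberg adjustment over 21650 genes and a threshold of 0.05. The fit was tested on simulated data. Libraries with the same number were not taken as pairs: with group means removed, 10 of 36 such pairs had a correlation over 0.1 (range -0.466 to 0.789). Among these were all same-numbered pairs of BALB/c and C57BL/6 glands of week 1 (0.413, 0.789 and 0.558), for which the labels give no reason. No library was a copy of another (highest correlation 0.993, lowest within a group 0.947). Libraries are separate mice or glands only as far as the labels number them. The p-values rest on the moderated spread within the 12 groups, taken over all 36 libraries, which need not be the spread between mice.

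Named members are those with the 5 largest called differences without overlap in each direction at each time point, the strongest of each role list, a set of well known androgen targets, the 3 largest in each tumor-gland comparison of week 6 and direction, the 3 with the strongest strain difference and the 4 with the strongest change in each interval. Of the pathway outside the hallmark, Foxa1 and the strongest called at 2 time points are named. Some genes that these rules name are not reported here, though counts include them. Dbi and other members given without a fold were named as list entries after their values were seen. Members, role lists, pathway lists and markers were chosen with earlier results of these data known. Coordinates are GRCm38 (mm10), 5384 of all genes took their symbol from GENCODE M21, and promoters are from RefSeq, matched by symbol. Alternatives were only the libraries compared, subtraction of the gland difference, median and MAD scaling, cyclic loess, no trend, a mean normalized count of at least 10, a replicate block, and each library left out.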

Additional observations from a re-analysis of the deposited data

Results flagged for a closer look

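For 8 pairs of a member and an interval, chosen as the 4 strongest of each interval, the 4T1 minus Py230 difference itself moved between time points by limma's test of the change. From week 1 to week 3 it moved by 0.34 ± 0.061 (adjusted p = 0.00103) for Abcc4, by -0.59 ± 0.095 (adjusted p = 0.00043) for Stk39, by -0.52 ± 0.088 (adjusted p = 0.000671) for Acsl3 and by -0.25 ± 0.048 (adjusted p = 0.00187) for Lman1. For Stk39 and Lman1 the Py230 tumors rose and the 4T1 tumors lay close to their earlier scores, for Acsl3 the Py230 scores went up and the 4T1 scores down, and for Abcc4 the reverse. From week 3 to week 6 it moved by 0.51 ± 0.088 (adjusted p = 9.77e-05) for Acsl3, by -1.72 ± 0.14 (adjusted p = 4.09e-09) for Tmprss2, by 0.41 ± 0.057 (adjusted p = 6.62e-06) for H1f0 and by -0.56 ± 0.088 (adjusted p = 3.17e-05) for Sord. Here the larger move was in the 4T1 tumors, up for Acsl3 and H1f0 and down for Tmprss2 and Sord, while the Py230 means of all 4 went up or stayed near their earlier level. Both changes share the tumors of week 3, where single libraries stood apart in adipocyte and muscle markers, and the part of those libraries in single genes was not tested beyond leaving each out.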

How the results depend on the processing

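The scores carry no depth, so counting error is unknown, and each group has 3 libraries. Leaving out single libraries gave 2 to 23 members called between the tumors at week 1, 17 to 33 at week 3 and 34 to 42 at week 6, 8 to 25 for the first change of the difference and 21 to 36 for the later one. Against glands it gave 0 to 18, 0 to 11 and 54 to 60 for 4T1 tumors and 0, 7 to 34 and 44 to 48 for Py230 tumors at weeks 1, 3 and 6, 0 to 2, 0 to 3 and 1 to 3 between the strains' glands, and 40 to 49 and 29 to 38 for week 6 against week 1 in 4T1 and Py230 tumors. With only the libraries compared, the spread is estimated from those libraries alone. That fit called 5, 2 and 43 members between the tumors at weeks 1, 3 and 6. Against glands it called 0 and 0 for 4T1 tumors at weeks 1 and 3 and 0 for Py230 tumors at week 3. Between the strains' glands it called 0 at week 1. With the gland difference subtracted, 0 and 16 were called between the tumors at weeks 1 and 3, and Tnfaip8 at week 6 turned to 0.0388. Between the strains' glands at week 1, cyclic loess and the replicate block each called 2 instead of 1. The replicate block moved no other count of members by over 1.5 times and made 1 further call among the 123 values of named genes. Since the labels only number the libraries, no weight is put on it. Same-numbered glands of week 1 did correlate between the strains, at 0.413, 0.789 and 0.558 with group means removed. Median and MAD scaling, cyclic loess, no trend and the count filter moved no other count by over 1.5 times. Of the 123 values, the gland subtraction ended the call for 31 and turned Tnfaip8, which was then not called either, the libraries compared alone for 27, and cyclic loess and median and MAD scaling for 3 each. The cause of these losses was not tested.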

Other observations

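Arxes1 and Arxes2, a near-identical pair of X-linked genes that are active in fat, are listed as androgen response genes only through their human partner SPCS3. Arxes2 scored -0.73, -0.65 and -0.43 in the 4T1 tumors and 0.18, 0.23 and 0.23 in the Py230 tumors of week 6 (-0.81 ± 0.29, adjusted p = 0.0258), and the call was lost without 4T1 replicate 1 or 2 or any Py230 library. At week 3 its 4T1 scores spread over -0.39, 1.07 and 1.28, and their adipocyte marker means were 0.608, 2.00 and 2.12. Spcs3 itself was higher in 4T1 tumors at week 6. Both calls were lost with the gland difference of the strains subtracted, where the estimates were -0.81 for Arxes2 and 0.20 for Spcs3.

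The hexamer AGAACA was found before or at the start of Azgp1, Cdk6, Cenpn, Hmgcs1, Ncoa4, Sat1, Sgk1, Uap1 and Xrcc5. Among these, Azgp1 and Sgk1 were lower and Cdk6 higher in 4T1 than in Py230 tumors of week 6. Hmgcs1 and Xrcc5 were not called there. Of all genes, 16.7% were lower and 24.1% higher at that time point. The hexamer was in 15.3% of member windows and 19.0% of all, and a link between hexamer and calls was not tested. Appbp2, Ell2 and H1f0 were called in opposite directions between the tumors at weeks 3 and 6.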
